A study of Mus musculus with 6 samples.

Results

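Of 1182 gene symbols that name a microRNA in a table of transcript levels from Raw264.7 macrophages, 166 (14.0%) had measurable coverage, and these loci are described here in cells with and without knockdown of *Etv5*. The loci were chosen by their level: each had an RPKM (reads scaled to gene length and to all mapped reads) of 1 or more in at least 3 of the 6 libraries. A further 634 microRNA symbols were listed at 0 in every library, and 382 were above 0 but under this threshold. Because the level chose the loci, their levels are given as a description and without a test. The table held 24786 symbols in all.

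Raw264.7 is a mouse macrophage line from a tumor induced by Abelson murine leukemia virus, and both groups carried a short hairpin RNA delivered by lentivirus. The sh-NC cells (n = 3 libraries) received a control hairpin, and the sh-Etv5 cells (n = 3 libraries) a hairpin against *Etv5*, an ETS family transcription factor. The labels give the strain as C57BL/6 and the age as postnatal day 21 for all libraries. They also state that expression was read 24 or 48 h after infection, without saying which time holds for the sequenced cells. The paper describes the sequenced knockdown cells as stably transfected, and its lentivirus protocol for Raw264.7 cells included puromycin selection during passage. Which *Etv5* hairpin these cells carried, and whether the 3 libraries of each group were separate infections, is not given in the sources used here, so n counts libraries and the p-values measure the spread between them. *Etv5* itself was at 9.18, 9.89 and 9.39 RPKM with sh-NC and 5.19, 4.91 and 5.28 RPKM with sh-Etv5, and the groups did not overlap (log2 fold change -0.78, limma adjusted p = 2.74e-07). Of 10 macrophage markers 9 were measured, *Mertk* being near 0 in all libraries; 4 were higher and 4 lower with sh-Etv5, and the part of this in the values below was not tested. The macrophage markers summed to 4490 to 4616 RPKM with sh-NC and 3587 to 3704 RPKM with sh-Etv5. *Lyz2* alone had means of 2834 RPKM with sh-NC and 2041 RPKM with sh-Etv5, so this sum is largely that of a single gene. The summed RPKM of markers of T cells, B cells, fibroblasts and epithelial cells reached at most 0.367 in any library. Read depth is unknown from RPKM values, so counting error could not be given. The summed RPKM of a library was 320462 to 322949 with sh-NC and 330454 to 340257 with sh-Etv5.

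MicroRNAs are short RNAs that guide Argonaute proteins to messenger RNAs with a matching site, mostly through the seed near their 5′ end. They are cut from a long primary transcript in which they lie as a hairpin, in the nucleus by the Microprocessor (Drosha with Dgcr8) and, after export by Exportin-5, in the cytoplasm by Dicer. Many hairpins lie in an intron or exon of another gene and share its primary transcript. The libraries were made from polyadenylated RNA, in which mature microRNAs are too short and lack the tail to be captured. A value for a microRNA symbol is therefore coverage of the precursor locus or of a transcript that runs through it, and no level of a mature microRNA was measured. In macrophages, miR-155 is known as a microRNA induced by inflammatory signals, and miR-142 and miR-223 as microRNAs of blood cells.

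The mature microRNAs of the loci on which the comparison turned are shown from RefSeq (GRCm38.p6), with bases 2 to 8, the seed, in capitals. The loci of the larger rises among them were these, together with miR-155 and miR-22, whose host transcripts rose.
miR-155-5p: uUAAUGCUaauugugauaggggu
miR-155-3p: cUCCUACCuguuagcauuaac
miR-22-3p: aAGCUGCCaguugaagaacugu
miR-22-5p: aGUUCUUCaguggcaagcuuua
miR-5130: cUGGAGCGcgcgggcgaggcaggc
miR-6537-3p: uUAUCAGGuggaagaacucagcu
miR-6244: gGGGGCGUggaauuaucgggu
miR-678: gUCUCGGUgcaaggacuggagg

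The next set holds microRNAs of loci with the larger falls, and those carried by *Mir17hg*, whose own hairpin rows were under the threshold but whose transcript fell. miR-25-3p and miR-92a-3p have the same seed, as do miR-17-5p and miR-20a-5p, and miR-19a-3p and miR-19b-3p.
miR-25-3p: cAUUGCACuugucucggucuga
miR-92a-3p: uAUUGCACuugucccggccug
miR-17-5p: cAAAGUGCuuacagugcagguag
miR-20a-5p: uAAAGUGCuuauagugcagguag
miR-18a-5p: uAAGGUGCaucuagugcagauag
miR-19a-3p: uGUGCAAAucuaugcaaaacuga
miR-19b-3p: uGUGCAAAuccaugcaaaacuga
miR-1306-3p: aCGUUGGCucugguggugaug
miR-1306-5p: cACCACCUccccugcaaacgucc
miR-7117-5p: uCUGGGGGcucagcugaggaua
miR-1892: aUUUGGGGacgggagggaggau

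Hairpins from the noncoding host of miR-155, from the host of miR-22 and from the coding sequence of *Dgcr8* are given whole, with the mature arms in capitals, because a read over such a locus is a read over this sequence. They lie at chr16:84714140-84714204 (plus strand), chr11:75463716-75463810 (plus strand) and chr16:18284239-18284317 (minus strand).
mir-155: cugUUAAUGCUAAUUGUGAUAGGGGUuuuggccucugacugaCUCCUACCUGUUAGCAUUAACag
mir-22: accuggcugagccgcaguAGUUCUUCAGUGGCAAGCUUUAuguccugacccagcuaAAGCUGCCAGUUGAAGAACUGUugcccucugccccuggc
mir-1306: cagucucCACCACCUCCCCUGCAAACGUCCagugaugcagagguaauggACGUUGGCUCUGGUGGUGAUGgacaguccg

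A RefSeq mature sequence was matched for 151 of the 166 loci, 235 sequences in all. They held 226 different seeds, and 5 seeds were each shared by 2 microRNAs, so the loci did not fall into a few seed families. The seed GGGCCUG was shared by miR-2861 and miR-3091-3p, and AGGAUGA by miR-6960-5p and miR-8104.

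Of the 166 loci, 4 are symbols of host transcripts (*Mir155hg*, *Mir17hg*, *Mir22hg* and *Mir1a-1hg*) and 162 are precursor loci of 43 to 141 bases (median 76). Their positions were taken from the RefSeq hairpin for 143 and from GENCODE release M21 for 19, both on GRCm38. Another gene on the same strand overlapped 147 of the precursors, here called the host. A total of 108 precursors (66.7%) overlapped an exon of the host, 39 (24.1%) lay in an intron, and for 15 (9.26%) no host was found. Of the exonic loci, 47 overlapped coding bases, 36 overlapped a UTR and no coding base, and 25 lay in exons of noncoding transcripts. There were 144 different hosts, and 139 of the hosted loci had a protein coding one.

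Coverage of the loci was low and variable. Their median mean level was 3.47 RPKM, against 10.9 RPKM for all 10738 genes with 1 RPKM or more in at least 3 libraries. Only 29 loci had a mean of 10 RPKM or more, and 104 were under 5 RPKM. The within-group SD had a median of 0.222 for the loci and 0.0679 for all genes on the log2(RPKM + 1) scale. Among the 62 loci with a mean of 5 RPKM or more it was still 0.160, against 0.0607 for genes at that level. A precursor locus is much shorter than most genes, and the part of its length in this spread was not tested. The 2 loci just inside the threshold were *Mir7060* (1.02 RPKM in the library that decided its inclusion) and *Mir7017* (1.03 RPKM), and just outside were *Mir677* (0.986 RPKM) and *Mir7077* (0.985 RPKM).

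The knockdown was compared with limma on log2(RPKM + 1) over all 10738 genes, and a gene is referred to as called where its p-value, adjusted by Benjamini-Hochberg, was under 0.05. The log2 fold change is sh-Etv5 minus sh-NC on that scale, which understates the change of low loci. Of the 166 loci, 38 (22.9%) rose and 63 (38.0%) fell with sh-Etv5. Among all genes tested, 33.3% were higher and 41.0% lower, and 74.3% were called in either direction. The loci were thus called in 60.8% of cases, a smaller share than the genes at large. The groups had no overlap in 85 loci (51.2%), against 76.4% of all genes. The median log2 fold change was -0.16 over the loci and -0.05 over all genes. Beyond an absolute log2 fold change of 1, 10 loci were higher and 7 lower, against 9.23% of all genes in either direction. A total of 122 loci reached 1 RPKM in all 6 libraries. Another 8 reached it in libraries of a single group and so had to differ to be included, 5 with sh-NC (*Mir7060*, *Mir7081*, *Mir6942*, *Mir5113* and *Mir6960*) and 3 with sh-Etv5 (*Mir7046*, *Mir1938* and *Mir155hg*). Over the other 158 loci, 35 were higher and 58 lower, and 8 higher and 5 lower had an absolute log2 fold change above 1 (8.23% in all). Without the filter on low values, 29 of the 101 called loci were no longer called.

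The transcripts that serve as hosts of known microRNAs gave some of the widest differences. *Mir155hg*, the noncoding transcript that carries the miR-155 hairpin, had 0.561, 0.542 and 0.282 RPKM with sh-NC and 5.10, 4.03 and 5.16 RPKM with sh-Etv5. Every control library was under 1 RPKM and every knockdown library above 4 RPKM. Its log2 fold change was 1.98 (SE 0.107), and since the locus was included only through the sh-Etv5 libraries, its test is given from the fit without any filter on low values (limma adjusted p = 8.71e-05). The precursor row itself, *Mir155*, did not reach the threshold. It had 0.506, 0 and 0 RPKM with sh-NC and 0.890, 0.526 and 1.01 RPKM with sh-Etv5, with no overlap between the groups but a narrow gap (log2 fold change 0.65, limma adjusted p = 0.0430 in that same fit).

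*Mir22hg*, which carries the miR-22 hairpin in an exon, rose in the same direction. It was at 2.08, 1.44 and 2.35 RPKM with sh-NC, and at 10.3, 10.2 and 11.5 RPKM with sh-Etv5. The knockdown mean was 10.7 ± 0.701 RPKM and the control mean 1.96 ± 0.468 RPKM (SD, n = 3), which gave 1.99 on the log2 scale (SE 0.106, limma adjusted p = 1.91e-08). The precursor row *Mir22* had 2.34, 0.303 and 1.97 RPKM in control cells and 4.02, 6.76 and 7.67 RPKM in knockdown cells. All knockdown libraries were higher, although the lowest control library stood well apart from the other two (log2 fold change 1.57, SE 0.307, limma adjusted p = 0.000756). Its hairpin also lies in an exon of a noncoding *Tlcd2* transcript, and *Tlcd2* was higher as well. *Tlcd2* passed the filter only through the sh-Etv5 libraries, so its test is given from the fit without a filter (log2 fold change 1.05, limma adjusted p = 0.000683).

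*Mir17hg*, the primary transcript of the miR-17 cluster, moved the other way. This cluster is known to be driven by Myc and to favor proliferation. Its transcript had 9.63, 10.2 and 10.3 RPKM with sh-NC and fell to 4.40, 4.34 and 5.00 RPKM with sh-Etv5. The groups were far apart (log2 fold change -0.99, SE 0.0632, limma adjusted p = 9.59e-08). The rows of the 6 hairpins in this transcript (*Mir17*, *Mir18*, *Mir19a*, *Mir20a*, *Mir19b-1* and *Mir92-1*) were all under the threshold. Their summed RPKM was 2.18, 5.26 and 4.54 with sh-NC and 1.31, 1.12 and 1.72 with sh-Etv5, the lowest control being above the highest knockdown library. Among them *Mir92-1* was the highest, at up to 3.28 RPKM in control cells, and none was called in the fit without a filter (lowest limma adjusted p = 0.0597). *Mir25*, whose product shares its seed with miR-92a, is hosted by *Mcm7*, a subunit of the replicative helicase. The locus was at 4.87, 2.55 and 2.54 RPKM in control cells and 0.920, 0.482 and 2.001 RPKM in knockdown cells, without overlap (log2 fold change -1.04, SE 0.245, limma adjusted p = 0.00270). *Mcm7* fell from 69.6 ± 1.45 to 34.0 ± 0.582 RPKM (SD, n = 3; log2 fold change -1.01, limma adjusted p = 7.46e-10).

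The Mir21 family was hardly covered. *Mir21a* had 0, 0.627 and 0 RPKM with sh-NC and 0.403, 0.354 and 0.822 RPKM with sh-Etv5, and the groups overlapped (log2 fold change 0.36, 95% interval -0.22 to 0.95, limma adjusted p = 0.271 without a filter). *Mir21b* and *Mir21c* were listed at 0 in all libraries. *Vmp1*, the gene that adjoins the miR-21 hairpin, was measured at 22.6, 23.8 and 23.2 RPKM with sh-NC and 42.5, 41.8 and 44.3 RPKM with sh-Etv5 (log2 fold change 0.86, limma adjusted p = 7.33e-09). *Mir146*, another microRNA known from inflammatory signaling, stayed under 1 RPKM in every library, at 0, 0 and 0.323 RPKM in control cells and 0.701, 0.339 and 0.396 RPKM in knockdown cells. *Mir146b* and *Mir223* were listed at 0 throughout. No let-7 symbol was among the 166 loci.

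**Figure D1:**
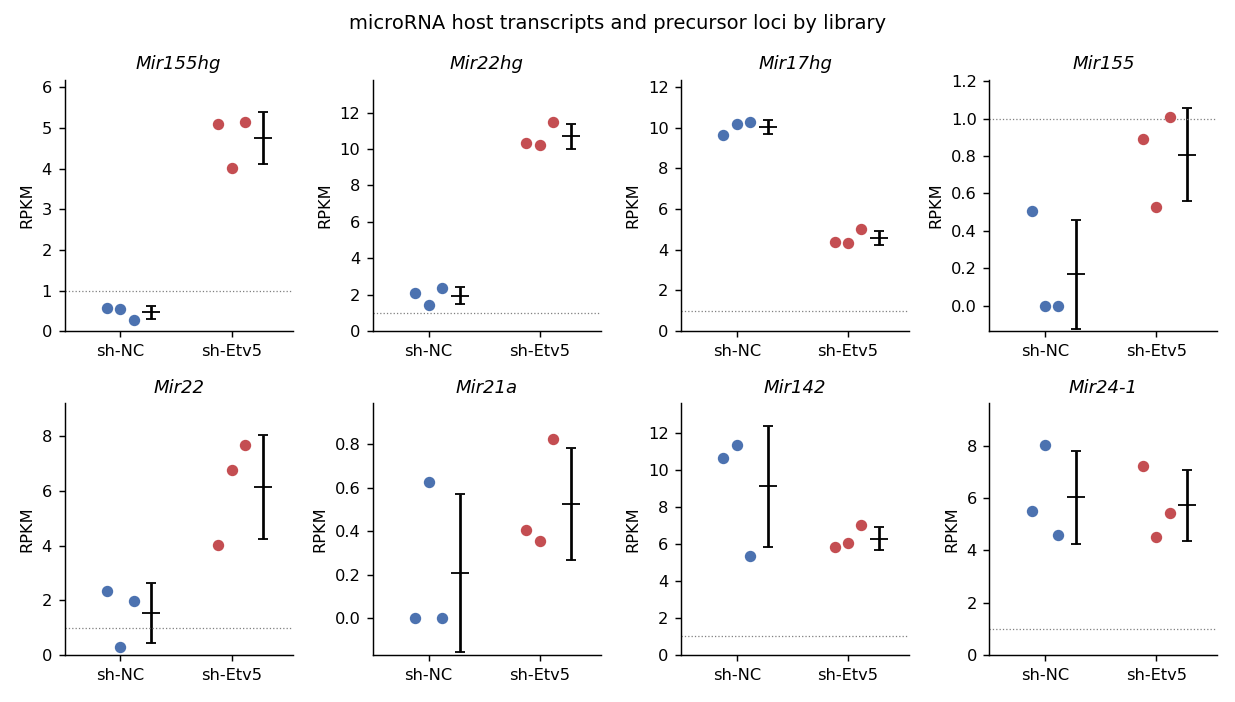
RPKM of 3 host transcripts and 5 precursor loci in each library (points; sh-NC blue, sh-Etv5 red), with the mean and SD (n = 3) beside them and a dotted line at the threshold of 1 RPKM. The sh-Etv5 points of Mir155hg (4.03 to 5.16) and Mir22hg (10.2 to 11.5) lie above all sh-NC points, those of Mir17hg (4.34 to 5.00) lie below, and the points of Mir21a, Mir142 and Mir24-1 overlap.

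Other well-known microRNAs were named after their values were seen. *Mir142* had 10.6, 11.3 and 5.32 RPKM with sh-NC and 5.83, 6.02 and 6.99 RPKM with sh-Etv5. A single control library lay below the knockdown libraries and made the groups overlap (log2 fold change -0.41, 95% interval -0.86 to 0.03, limma adjusted p = 0.0819). *Mir142b*, annotated on the opposite strand over 64 of the same bases, had nearly the same values, as did *Mir24-1* and *Mir3074-1*, which share 68 bases on opposite strands. Whether the counting used strand is not given in the sources used here, so the loci of each pair cannot be told apart. *Mir24-1* was at 4.60 to 8.03 RPKM in control and 4.53 to 7.22 RPKM in knockdown cells (log2 fold change -0.06, 95% interval -0.43 to 0.32). *Mir23b*, in an intron of the same host, was lower in all knockdown libraries (0.434 to 1.02 RPKM against 1.23 to 2.57 RPKM, log2 fold change -0.60, limma adjusted p = 0.0109, or 0.0866 without the filter on low values).

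The rises beyond these hosts were led by loci that overlap exons of genes that rose themselves. The largest rises and falls were taken from called loci whose groups did not overlap, so neither feature is a result of its own here. *Mir5130* lies in the UTR of *Kctd12*, which encodes an auxiliary subunit of GABA-B receptors. It had 5.04, 7.04 and 6.40 RPKM with sh-NC and 45.3, 41.7 and 43.7 RPKM with sh-Etv5, the largest log2 fold change of all 166 loci (2.65, SE 0.0877, limma adjusted p = 4.81e-10). *Kctd12* itself went from 9.71 ± 0.328 to 72.3 ± 2.03 RPKM (SD, n = 3; log2 fold change 2.77). *Mir6537*, which overlaps coding bases of *Pou2f2*, the gene of the transcription factor Oct-2, was at 2.97, 1.98 and 2.22 RPKM in control cells and 15.4, 17.6 and 11.8 RPKM in knockdown cells. The groups lay well apart (log2 fold change 2.23, limma adjusted p = 5.32e-08), and the change in *Pou2f2* was close to it (2.08). *Mir7678* overlaps the exon of *Slpi*, a secreted protease inhibitor, by a single base. Its values of 1.17, 1.23 and 1.36 RPKM against 8.83, 6.52 and 6.22 RPKM were low beside those of *Slpi* (5.50% of its level), and the log2 fold changes were 1.85 and 1.96.

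*Mir6244* was the largest rise among loci with no host found on their strand. It had 6.76, 5.19 and 6.48 RPKM with sh-NC and 26.0, 19.8 and 22.7 RPKM with sh-Etv5 (log2 fold change 1.74, limma adjusted p = 4.26e-08). All 117 of its bases lie opposite an exon of *Zc3h12c*, a relative of the RNase gene *Zc3h12a*, and *Zc3h12c* rose by 1.48 on the log2 scale. Without strand, reads from these overlapping genes cannot be told apart. *Mir678* in the UTR of *Prmt2*, an arginine methyltransferase, went from 4.82 ± 0.578 to 13.5 ± 1.70 RPKM, and *Mir6990* in an exon of *Esrra*, an orphan nuclear receptor gene, from 3.74 ± 0.721 to 10.5 ± 2.36 RPKM (SD, n = 3; log2 fold changes 1.32 and 1.28). Neither locus had groups that overlapped, as the choice of loci required. *Mir1938*, in an intron of *Ifrd1*, was included only through the knockdown libraries, with 0.714, 0 and 0.0208 RPKM against 1.29, 1.04 and 2.16 RPKM, or 0.978% of the level of *Ifrd1*.

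The largest fall was that of *Mir1306*, which lies wholly within coding sequence of *Dgcr8*, the RNA-binding partner of Drosha. It had 30.5, 20.8 and 23.7 RPKM with sh-NC and 8.50, 9.83 and 5.91 RPKM with sh-Etv5, without overlap (log2 fold change -1.53, SE 0.158, limma adjusted p = 5.11e-06). *Dgcr8* was measured more tightly, at 21.0, 21.4 and 21.0 RPKM against 8.85, 8.95 and 8.36 RPKM (log2 fold change -1.19, limma adjusted p = 1.68e-09). A second locus lies in a gene of the same pathway: *Mir5113*, in the UTR of the GW182 gene *Tnrc6b*, had 1.71 to 2.21 RPKM in control and 0.329 to 0.395 RPKM in knockdown cells. It was included only through the control libraries. *Mir6960*, included in the same way, lies in an intron of *Troap*, a gene of the mitotic spindle, and was at 2.77 to 3.58 RPKM against 0.572 to 0.933 RPKM.

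*Mir7117* fell from 3.85 ± 0.272 to 1.07 ± 0.0928 RPKM, and its host *Ank*, a pyrophosphate transporter gene, fell from 136 ± 3.73 to 38.5 ± 0.688 RPKM (SD, n = 3; log2 fold changes -1.23 and -1.80). The locus lies only in exons of transcripts annotated as retaining an intron. *Mir1892*, in the UTR of *Sptssa*, a subunit of serine palmitoyltransferase, had 60.4, 54.1 and 60.1 RPKM with sh-NC and 26.9, 22.8 and 33.2 RPKM with sh-Etv5. This was the largest fall in RPKM units among the 10 largest log2 falls, and the log2 fold changes of locus and host were -1.06 and -1.03. The other falls of this group were in hosts of immune signaling, *Irak1* (*Mir5132*, -1.01) and *P2rx7* (*Mir8115*, -0.98), and in the ubiquitin ligase gene *Huwe1* (*Mir3113*, -0.94). Each had groups that did not overlap, as the choice of loci required, with limma adjusted p-values of 0.000641, 0.000267 and 0.00153.

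**Figure D2:**
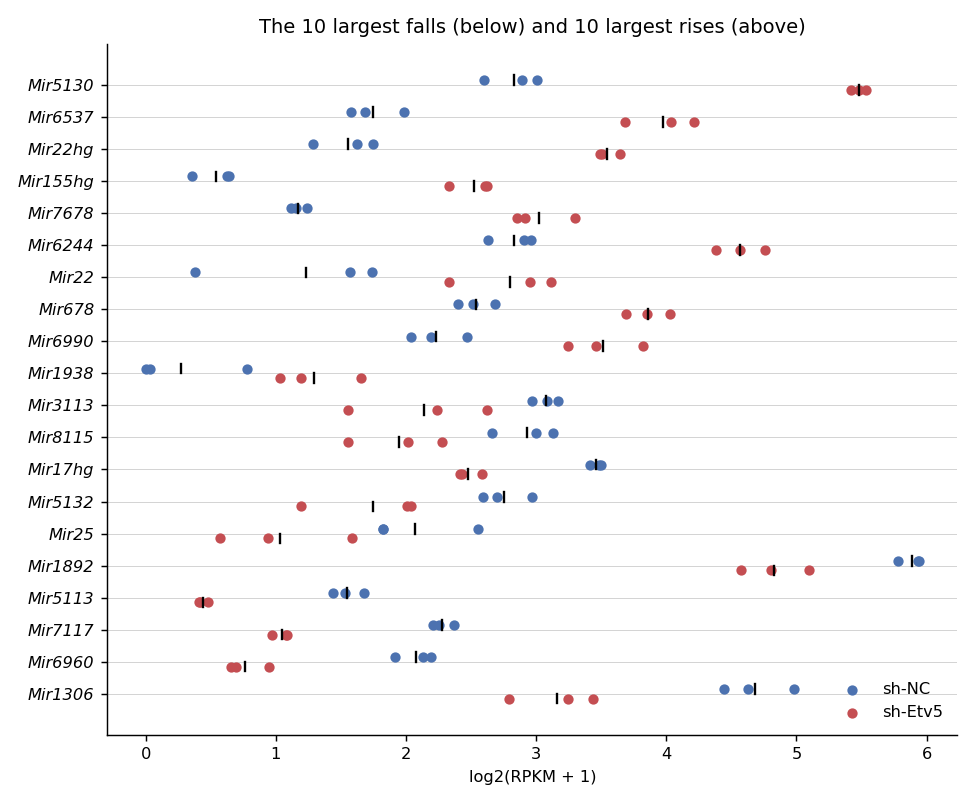
Values of the 10 called loci with the largest rise and the 10 with the largest fall among loci whose groups did not overlap, as log2(RPKM + 1) per library (points; sh-NC blue, sh-Etv5 red; the black bar is the mean of 3). Mir5130 has the widest gap (log2 fold change 2.65) and the falls are smaller, down to -1.53 for Mir1306.

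The loci of highest level were again pieces of abundant transcripts. *Mir682* stood far above all others at 1350 ± 23.5 RPKM with sh-NC and 830 ± 58.8 RPKM with sh-Etv5 (SD, n = 3; log2 fold change -0.70, limma adjusted p = 1.27e-07). Its RefSeq hairpin lies at chr13:75645046-75645141 in the pseudogene *Gm4149*, and 95 of its 96 bases match a transcript of *Rpl37a*, a protein of the large ribosomal subunit, without a gap. The row of *Rpl37a* was at 99.7 ± 1.05 and 62.3 ± 5.84 RPKM with a log2 fold change of -0.67, so the locus and the ribosomal gene had like changes at very different levels. Reads of such copies cannot be told apart with certainty, and the value of *Mir682* is uncertain as a measure of its own locus. This match was sought after the values were seen.

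*Mir5114* in *Scd2*, a stearoyl-CoA desaturase gene, followed at 191, 177 and 184 RPKM in control cells and 100.2, 130 and 96.3 RPKM in knockdown cells (log2 fold change -0.77, limma adjusted p = 1.32e-05). *Mir8094* in *Ddx39b*, an RNA helicase gene of messenger RNA export, fell from 155 ± 8.60 to 102 ± 10.2 RPKM, and *Mir686* in the proteasome gene *Psmb5* rose slightly from 116 ± 2.80 to 133 ± 10.6 RPKM (SD, n = 3; log2 fold changes -0.60 and 0.19). *Mir6418*, which overlaps *Gnb2*, the gene of a G protein beta subunit, was at 56.5 to 60.6 and 53.2 to 58.0 RPKM. It was not called (log2 fold change -0.06, 95% interval -0.15 to 0.04).

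Several symbols shared sequence or values. The pairs *Mir692-2* and *Mir692-3*, *Mir8099-1* and *Mir8099-2*, and *Mir7676-1* and *Mir7676-2* had identical values in all 6 libraries, so the 166 loci held 163 distinct rows. *Mir692-2* lies in a ferritin pseudogene, and 106 of its 109 bases match *Ftl1*, the ferritin light chain gene, without a gap. The pair of *Mir692* loci was at 6.30 to 8.34 RPKM in control and 10.2 to 11.3 RPKM in knockdown cells (log2 fold change 0.52), and *Ftl1* at 2097 ± 25.04 and 3535 ± 107 RPKM (SD, n = 3; 0.75). *Mir7676-1* and *Mir7676-2* lie in the paralogs *Csf2rb2* and *Csf2rb*, and every stretch of 50 bases in either hairpin also occurs in the other gene.

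Across most loci, the change had the sign of the host's. Of the 103 exonic loci with a tested host, 89 had a log2 fold change of the same sign as the host, with a Pearson r of 0.90 and a Spearman rho of 0.88 across loci. The median absolute difference between locus and host was 0.14 on the log2 scale. Of the 62 called exonic loci with a tested host, the host was also called for 57, and 56 of these moved in the same direction. Among all genes tested 74.3% were called, so a called host is frequent in any case. An exonic locus here overlaps an exon by at least 1 base. Pearson r was 0.89 for 53 loci wholly in an exon outside retained introns and 0.95 for 37 partly in one. For 13 loci only in exons of retained-intron transcripts it was 0.71. The widest departure was *Mir7658*, wholly in coding sequence of *Plekhn1*. It had 5.21, 7.63 and 6.50 RPKM with sh-NC and 6.28, 6.81 and 8.56 RPKM with sh-Etv5 and was not called (log2 fold change 0.14), while *Plekhn1* rose from 2.05 ± 0.226 to 9.16 ± 0.198 RPKM (SD, n = 3; log2 fold change 1.74, limma adjusted p = 2.16e-09). Locus and host share reads, libraries and control samples, so these values describe the table and carry no p-value.

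Intronic loci gave lower values. Among 38 with a tested host, 28 had the same sign, with r = 0.72 and rho = 0.57, and the median absolute difference was 0.21. Of the 22 called ones, 20 had a called host, 18 in the same direction, against 74.3% called among all genes tested. Without the 6 intronic loci included through a single group, 23 of 32 had the same sign, and of 16 called ones 15 had a called host, 13 in the same direction. Examples were *Mir7062* in *Adam8*, a membrane protease gene (1.59 to 1.94 against 3.63 to 3.78 RPKM), and *Mir6973a* in *Ltb*, the lymphotoxin beta gene (3.43 to 3.96 against 6.05 to 7.03 RPKM). Their log2 fold changes were 0.79 and 0.69, and those of the hosts 1.01 and 1.12. *Mir6983* in *Csf1r*, the receptor gene for the macrophage growth factor M-CSF, had 8.08 to 8.72 RPKM in control and 4.36 to 5.10 RPKM in knockdown cells, or 1.97% of the level of *Csf1r* (log2 fold changes -0.73 and -0.81). Whether exonic and intronic loci differ in this was not tested.

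**Figure D3:**
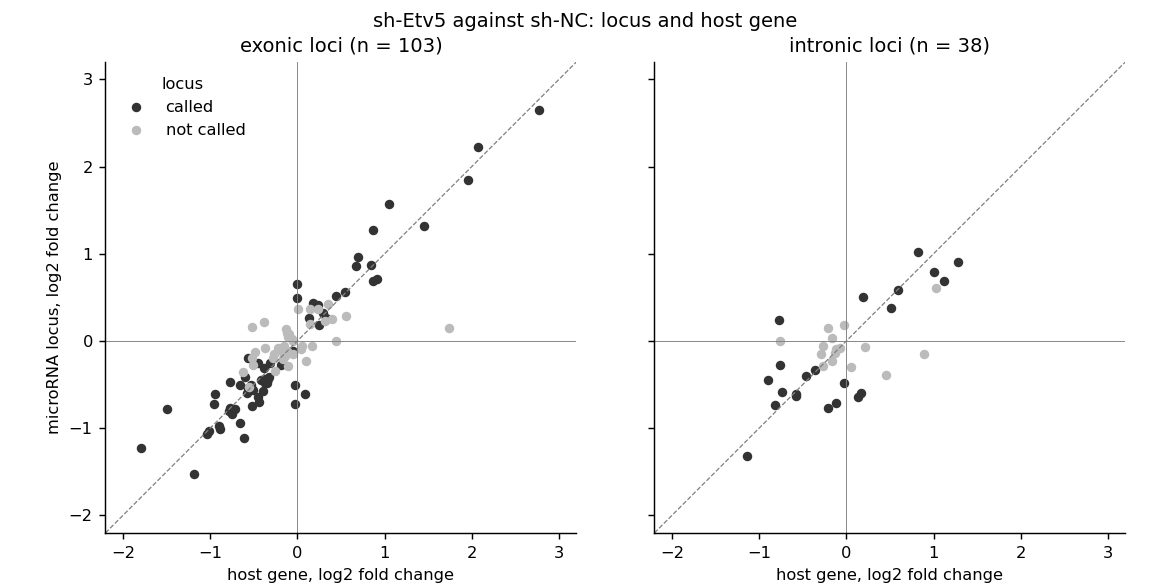
Log2 fold change (sh-Etv5 minus sh-NC, log2(RPKM + 1)) of each locus against that of its host gene, for 103 exonic and 38 intronic loci; dark points are called loci, grey points are not, and the dashed line marks equal change. Exonic loci, which overlap an exon by at least 1 base, lie along the line (r = 0.90), and intronic loci scatter more widely (r = 0.72).

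In only 3 cases were locus and host called in opposite directions. *Mir6935*, in a retained intron of the actin gene *Actg1*, had 5.19, 4.67 and 5.69 RPKM with sh-NC and 2.72, 3.87 and 2.66 RPKM with sh-Etv5 (log2 fold change -0.61, limma adjusted p = 0.000404). *Actg1* was higher by 0.09, and the locus was at 0.652% of its level. *Mir5125*, in an intron of the splicing gene *Srrm2*, was slightly higher (0.24, limma adjusted p = 0.0372, or 0.155 without the filter on low values) while *Srrm2* was lower (-0.77). *Mir23b* fell, as given above, while its host *2010111I01Rik* was higher by 0.17. A further pair of loci in the UTR of *Cdk9*, a kinase of transcription elongation, were called although *Cdk9* was not (log2 fold change -0.00). These were *Mir2861* (4.58 to 9.64 against 9.44 to 16.1 RPKM, log2 fold change 0.66, limma adjusted p = 0.0194) and *Mir3960* (7.003 to 10.5 against 8.31 to 17.0 RPKM, 0.50, limma adjusted p = 0.0454). The groups overlapped at both, and neither was called without the filter on low values (limma adjusted p = 0.139 and 0.211).

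The level of a locus relative to its host differed with where it lay. Loci wholly within an exon, exons of retained-intron transcripts aside, had a median of 65.9% of the host's RPKM (53 loci, quartiles 30.2% and 106%). The median was 18.4% for 37 loci partly within an exon and 4.30% for 13 that lay only in exons of retained-intron transcripts. The intronic loci had 3.54% (38 loci, quartiles 2.01% and 8.42%), near the value of the retained-intron loci. RPKM is scaled to length, but how reads reaching past a short locus were counted is not given in the sources used here. How far a short locus and a long gene can be compared on this scale was not tested. The loci were also chosen by level, and the part of that choice in these medians was not tested. The intronic locus above 100% of its host was *Mir3074-1*, which lies opposite an exon of *2010111I01Rik*.

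**Figure D4:**
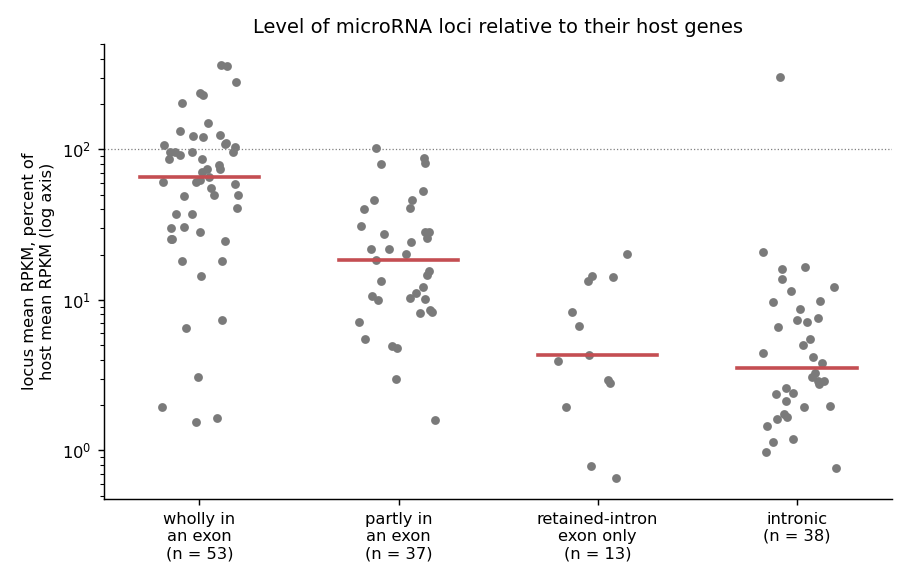
Mean RPKM of each locus as a percentage of the mean RPKM of its host gene (log axis), by position of the locus; points are loci and red bars medians. The medians fall from 65.9% for loci wholly in an exon to 3.54% for intronic loci.

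Of the 15 loci with no host found on their strand, 5 were higher and 5 lower, near the 33.3% and 41.0% of all genes. The higher ones include *Mir8099-1* and *Mir8099-2*, whose values were identical, so the same measurement counts more than once. An exon of a gene on the other strand overlapped 9 of the 15 loci, and of the 8 such loci with a tested gene, 5 had the sign of that gene. The named ones were *Mir6244*, above, and *Mir133a-2*, which had 5.96, 4.87 and 5.70 RPKM with sh-NC and 3.87, 3.52 and 3.44 RPKM with sh-Etv5 (log2 fold change -0.49, limma adjusted p = 0.000146). It lies within the span of *Mir1a-1hg*, the transcript of a microRNA pair known from muscle. The table used gives that gene no strand, so whether it is the host was not settled. *Mir1a-1hg* was at 3.56 to 3.72 and 1.90 to 3.34 RPKM (log2 fold change -0.37, limma adjusted p = 0.0158, or 0.0978 without the filter on low values).

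Messenger RNAs of the microRNA pathway itself were mostly lower. Of 49 genes in 3 lists, 44 were tested, and 7 were higher and 31 lower, against 33.3% and 41.0% of all genes. The Microprocessor and export list had 2 higher, 10 lower and 1 not called of 13, with a median log2 fold change of -0.45 against -0.05 over all genes. *Dgcr8* was lowest, as above, followed by the splicing factor gene *Srsf3* (74.0 to 74.9 against 35.5 to 39.4 RPKM, -0.99), and by *Srrt*, the cofactor of primary microRNA cleavage (-0.60). *Xpo5*, the gene of Exportin-5, had 33.4, 33.5 and 34.2 RPKM against 21.7, 23.9 and 21.8 RPKM (-0.57, limma adjusted p = 5.79e-07). *Drosha* was at 10.9 to 11.4 and 9.52 to 11.4 RPKM and was not called (-0.07), and *Dicer1* was called lower (-0.17, limma adjusted p = 0.0487) with groups that overlapped, a call that ended with the replicate block (0.0732) and without the filter on low values (0.119). The Dicer partner genes *Prkra* (0.48) and *Tarbp2* (0.13) were the higher ones, although the call of *Tarbp2* ended with the replicate block (limma adjusted p = 0.0577).

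The silencing complex list had 13 lower, 4 not called and 0 higher of 17 tested by limma, also 0 at an unadjusted p under 0.05, with a median of -0.29. The genes furthest down were *Pan2* of the deadenylase complex (4.45 to 5.20 against 2.14 to 2.46 RPKM, -0.80), *Cnot1*, the scaffold of the CCR4-NOT complex (-0.62), and *Tnrc6b* (-0.61). *Ago2*, the slicing Argonaute gene, was at 15.1 to 15.8 and 11.1 to 14.0 RPKM (-0.30, limma adjusted p = 0.00267). Regulators of precursors and of microRNA turnover were mixed, with 5 higher, 8 lower and 1 not called of 14 (median -0.18). *Zc3h12a*, an RNase known to cut inflammatory messenger RNAs and microRNA precursors, rose the most, from 4.39, 3.69 and 3.98 RPKM to 24.5, 23.8 and 23.8 RPKM (2.32, limma adjusted p = 6.45e-11). *Zswim8*, a ubiquitin ligase gene of target-directed microRNA decay, also rose (0.81), and *Hnrnpa1*, whose protein binds some primary microRNAs, fell (-0.80).

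**Figure D5:**
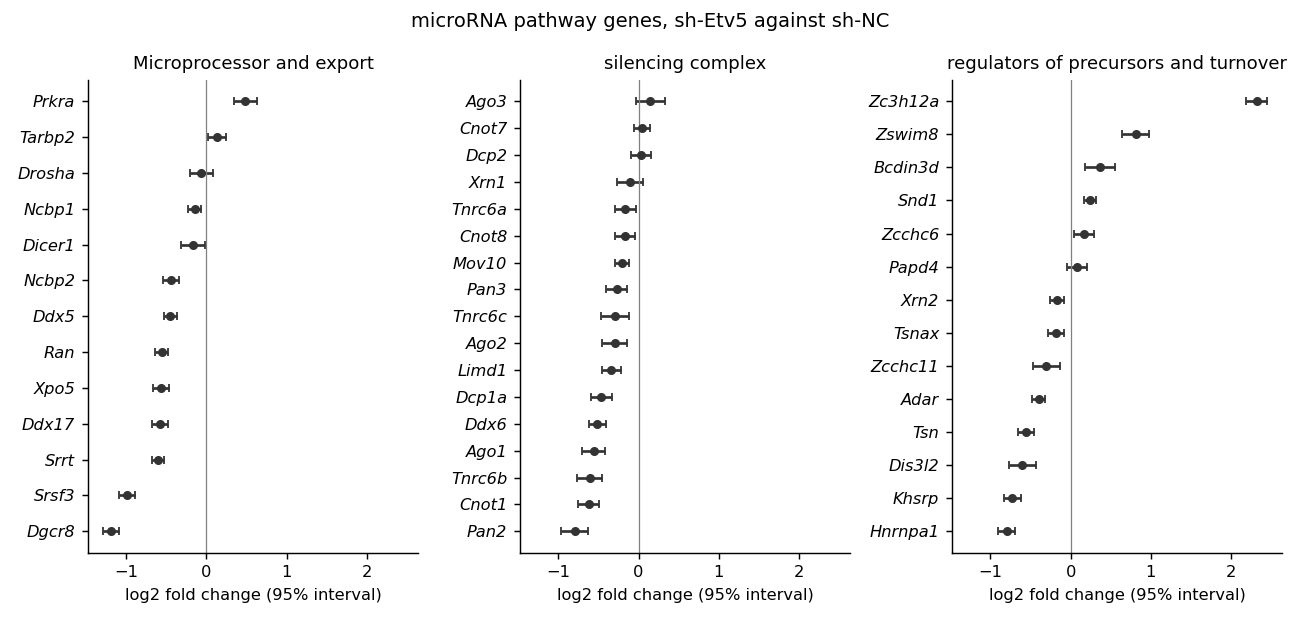
Log2 fold change (sh-Etv5 minus sh-NC) with its 95% interval for the tested genes of the 3 microRNA pathway lists. The Microprocessor and silencing lists lie mostly left of 0 (medians -0.45 and -0.29), and Zc3h12a is far to the right (2.32).

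Several pathway genes are also hosts of measured loci. Besides *Mir1306* in *Dgcr8* and *Mir5113* in *Tnrc6b*, *Mir3064* lies in *Ddx5*, a helicase gene of the Microprocessor, and *Mir7036* in *Srrt*. *Mir3064* had 61.2, 62.1 and 61.5 RPKM with sh-NC and 51.3, 49.3 and 53.6 RPKM with sh-Etv5, a small and tight difference (log2 fold change -0.26, SE 0.0384, limma adjusted p = 0.000104). *Mir7036* was at 5.25 to 7.33 and 3.66 to 5.79 RPKM, with overlap (-0.42, limma adjusted p = 0.0186). The call of *Mir7036* was lost without the filter on low values (limma adjusted p = 0.122). *Mir1306*, *Mir3064* and *Mir7036* had the sign of their hosts, as did *Mir5113*, whose direction its inclusion fixed.

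A list of 30 genes taught as targets of miR-155 moved in both directions. Of 26 tested, 8 were higher, 9 lower and 9 not called, with a median log2 fold change of 0.00, and these shares are near the 33.3% and 41.0% of all genes. The most changed were *Ikbke*, an IκB kinase related gene (5.15 to 5.94 against 18.7 to 20.6 RPKM, 1.67), *Cebpb*, a transcription factor gene of macrophage activation (71.4 to 75.6 against 130 to 137 RPKM, 0.85), and *Csf1r* (424 to 433 against 236 to 250 RPKM, -0.81). *Socs1*, a well-known target, was at 1.16 to 1.86 and 1.60 to 1.82 RPKM and was not called (0.09), whereas *Inpp5d*, the gene of the phosphatase SHIP1, was lower (-0.49, limma adjusted p = 4.32e-07). Messenger RNA levels do not measure the activity of a microRNA.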

How the data were processed

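Messenger RNA of 3 sh-NC and 3 sh-Etv5 libraries had been sequenced, and the authors deposited one RPKM value per gene symbol and library; whole reads and depth could not be recovered, and reads shared by overlapping genes may count for each. The build in the submitters' processing notes is mm10; the aligner and the annotation are not given in the sources used here. Groups came from the sample titles.

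The filter (1 RPKM in 3 libraries), pseudocount of 1 and limma 3.58.1 in R 4.3.3 (trend, two-sided, Benjamini-Hochberg over 10738 genes, adjusted p under 0.05) were as described above. An exact permutation test of 3 against 3 could not go below 0.1. Loci were placed by RefSeq and GENCODE M21 tables with Python 3.11.15 and pandas 2.3.3; a host overlaps by at least 1 base. On simulated data 200 of 10738 genes were changed by 1 on the log2 scale, and 197 were called, with 14 false calls. The changed genes were drawn from all genes tested, so recovery at the microRNA loci, or of smaller changes, was not tested. Members and lists were chosen with earlier results of these data known. Named were loci of known families, the 10 largest rises and falls among called loci whose groups did not overlap, the 5 of highest mean, those next to the threshold, their hosts, and the 3 most changed genes of each list; others, such as *Mir142*, *Mir2861*, *Mir7658* and *Rpl37a*, were named after the values were seen. Alternatives were other pseudocounts and filters, rescaling to the same sum, quantile normalization, no trend, a replicate block, each library left out, no host symbols and a fold threshold. Counting identical rows once and keeping loci at 1 RPKM in both groups were added after the data were seen.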

Additional observations from a re-analysis of the deposited data

How the results depend on the processing

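The counts of loci (38 higher, 63 lower) moved with the threshold on level and size: to 23 and 25 with a mean RPKM of at least 5, where 62 loci remain, and to 10 and 7, more higher than lower, with an absolute log2 fold change above 1. Without a filter they were 28 and 44, 29 loci losing their call, 16 of them with overlapping groups. After rescaling to equal sums they were 34 and 70. The share of all genes called with a mean RPKM of at least 5, without a filter or after rescaling is not given here. A move of the loci under these settings therefore cannot be told from one of all genes. Leaving out one library gave 34 to 41 higher and 57 to 65 lower loci, 3358 to 3494 higher and 4140 to 4371 lower genes, 34 to 37 called pathway genes and 16 to 18 called miR-155 targets. Replicate numbers did not pair the libraries (correlations of deviations 0.074, -0.071 and -0.035); with the replicate block 38 loci were higher and 65 lower, 3539 and 4361 genes, 36 pathway genes and 17 targets. Rescaling to the same sum gave a median log2 shift of -0.06 and turned *Gnb2* to -0.0030. Of the loci named by rule, *Mir686* was no longer called without a filter (limma adjusted p = 0.0560); among other genes the text gives, so were *Mir23b*, *Mir1a-1hg*, *Mir2861*, *Mir3960*, *Mir5125*, *Mir7036* and *Dicer1* (0.0866 to 0.211), and *Dicer1* and *Tarbp2* ended with the block. *Mir6418* was called after that rescaling, *Mir7017* with 3 alternatives and *Fbrs*, host of *Mir7060*, with 5; the cause was not tested. Over 59 genes named by rule 800 of 811 values kept their call and direction. Many of these genes were chosen as called or for a large change, so this is not the stability of the loci at large. Unknown depth and short loci limit values near 1 RPKM.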
